A study of Mus musculus with 2 samples.

Results

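Integrin subunit genes known mainly from leukocytes, endothelium and other lining cells were followed through the cell types of the mouse thoracic aorta. The 10 members (Itgb2, Itgal, Itgam, Itgax, Itgb7, Itga4, Itgae, Itga6, Itgb4 and Itgb8) were taken by symbol from 32287 measured features, which hold 27 integrin subunit genes, and all 10 were tested. The study profiled 2 aortas (n = 2, 1 group labelled WT, viable cells sorted after a cold digestion) by droplet single-cell RNA-seq (10x Genomics Chromium, 3′ kit), which counts messenger RNA molecules by unique molecular identifiers (UMIs). Both came from male C57BL/6J mice of genotype GFPiSMC (Myh11-CreERT2 with the mT/mG reporter), which per the labels received 5 daily injections of 1 mg tamoxifen when 3 weeks old and were studied at 12 weeks. The study's methods give a later age for tamoxifen in its mice, with a larger dose for the main schedule, and which schedule these 2 mice had could not be settled. In such mice the Cre under the Myh11 promoter switches the reporter to GFP in smooth muscle cells (SMCs). No treatment was compared. The comparisons are between cell types of the same 2 aortas, so a p-value measures only the spread between these samples.

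Integrins are cell surface receptors made of an alpha and a beta subunit, which must pair before they leave the endoplasmic reticulum. The beta2 chain (Itgb2) pairs with alphaL, alphaM and alphaX (Itgal, Itgam, Itgax) on leukocytes, where the pairs bind ICAM adhesion molecules and complement fragments. Alpha4 (Itga4) pairs with beta1 or beta7 and binds VCAM-1, fibronectin or MAdCAM-1, whereas alphaE (Itgae) pairs with beta7 alone and binds E-cadherin. Alpha6 (Itga6) forms laminin receptors with beta1 or with beta4 (Itgb4), the latter being the integrin of hemidesmosomes. Beta8 (Itgb8) pairs with alphaV and is known for releasing active TGF-β from its latent complex.

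Analysis covered 6539 cells with 41129166 UMIs from aorta 1 and 4614 cells with 27637874 UMIs from aorta 2, at medians of 5671 and 5396.5 UMIs per cell. The files held 8947 and 6263 cells, the labels give 6278 and 4300 after the authors' filtering, and the filters used here left 6744 and 4698 before doublets were removed. The 2 libraries shared 18 barcodes, 10 of them among analysed cells. Cell types were built without the integrin genes. Each named cluster had at least 3 markers of its class, each detected in at least 25% of its cells, and some sets were incomplete. At that mark the dendritic and gamma-delta T clusters had 4 markers and ILC2 5. Macrophages led by Prg4 and Saa3 had 7, and vascular endothelial clusters 6 or 7. In resident macrophages 9 of 9 macrophage markers were each detected in at least 25% of cells of both aortas. All 8 mesothelial, all 7 lymphatic endothelial and all 7 B cell markers met the same mark. The dendritic cells were a mixture, in which 6 of 25 cells of aorta 1 and 9 of 22 of aorta 2 had a UMI of Xcr1 or Clec9a, the markers of cDC1, and they are called conventional dendritic cells. Levels are in CPM, for which the UMIs of the gene were divided by all UMIs of the type, and mean ± SD is over the 2 aortas. The 3′ kit counts molecules by their ends, so CPM of different genes are compared without a length correction, although capture can still differ between genes. The floor is the CPM that 3 counts would give.

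The cell types that gave the UMIs differed between the 10 genes. Leukocyte types gave 86.3% and 86.9% of all Itgb2 UMIs in aortas 1 and 2, and 86.5% and 88.7% of those of Itgam. They also gave 92.5% and 85.7% of Itgal, 86.6% and 87.3% of Itgb7 and 79.3% and 80.4% of Itga4. Mature T cells alone gave 52.9% and 58.8% of Itgae UMIs. Endothelial types gave 85.8% and 90.9% of Itgb4 UMIs. SMCs and fibroblasts together gave 75.6% and 71.8% of Itgb8 UMIs, although their level of the gene was below that of mesothelial cells. Itga6 was found in macrophages, T cells and endothelial types. The macrophages gave 70.1% and 63.1% of its UMIs, most of them from a small group led by Prg4 and Saa3. Itgb2 was above the floor in both aortas in 15 of 23 types and Itga4 in 14, whereas Itgax and Itgae were so in 2 types each.

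The genes lie on 6 mouse chromosomes (GRCm38). Itgal, Itgam and Itgax are on chromosome 7, Itga4 and Itga6 on chromosome 2 and Itgae and Itgb4 on chromosome 11, with Itgb2 on 10, Itgb8 on 12 and Itgb7 on 15. On the same strand Itgam overlaps Gm49368 and Itga6 overlaps Gm13663 and Gm13662, and how reads shared with them were counted was not tested. On the opposite strand Itga4 overlaps Cerkl, Itgae overlaps Haspin, Itga6 overlaps Gm17250 and Gm13739, and Itgb4 overlaps B230344G16Rik.

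**Figure D1:**
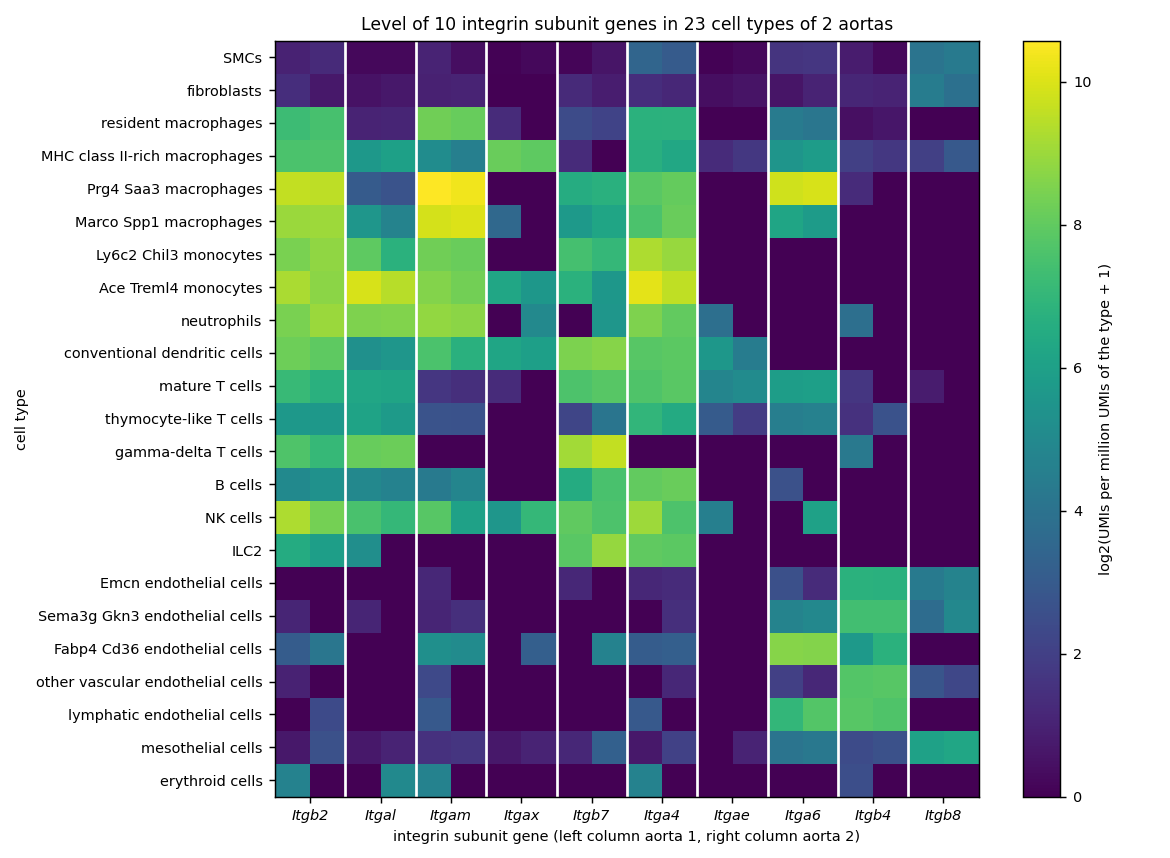
Heat map of the level of the 10 integrin subunit genes (columns, aorta 1 left and aorta 2 right of each pair) in 23 cell types (rows), as log2(CPM + 1). Itgb2 was at 31.5 CPM or more in every leukocyte row, against 1.03 and 1.41 in SMCs, and Itgb4 was above 50 CPM in the 5 endothelial rows.

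**Figure D2:**
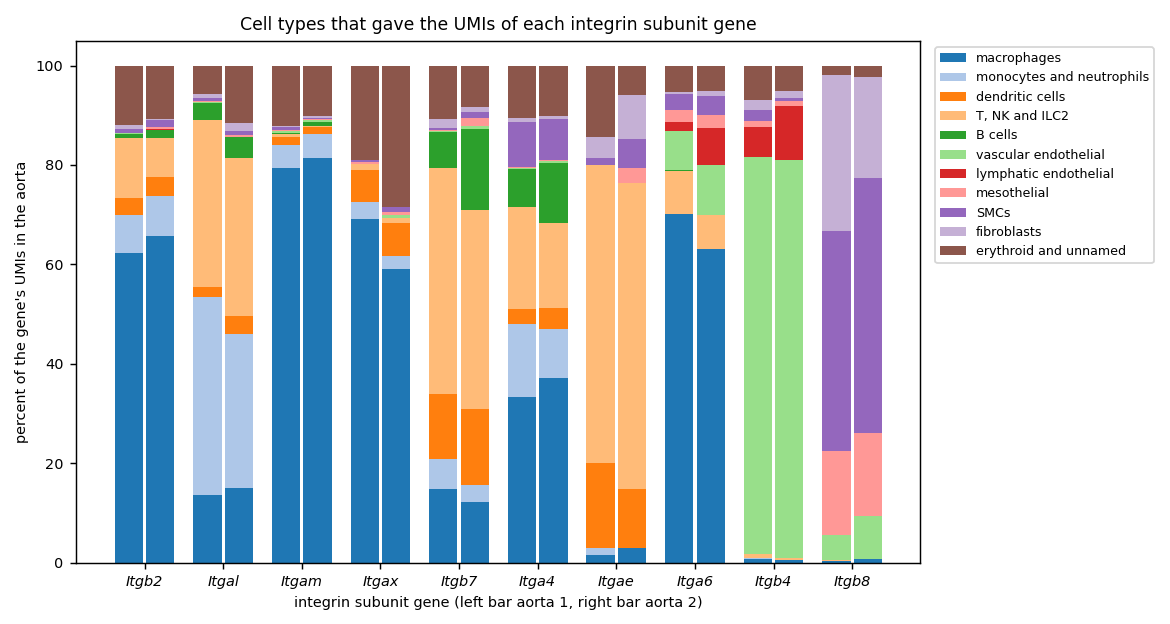
Stacked bars of the percent of each gene's UMIs that came from each group of cell types, with aorta 1 left and aorta 2 right for each gene. Macrophages made up 62.3% and 65.7% of Itgb2 and 79.5% and 81.5% of Itgam, whereas vascular endothelial cells made up 79.8% and 80.1% of Itgb4.

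When leukocyte types were set against structural types (vascular and lymphatic endothelial, mesothelial, SMCs and fibroblasts), 5 of the 10 members were higher and 2 lower in leukocytes. The background was high, since 34.2% of all genes tested passed in this comparison, 7.19% higher and 27.1% lower. A call here and below needed an adjusted p under 0.05 in edgeR's quasi-likelihood test and a log2 fold change beyond 1 in size. The higher members were Itgal (log2 fold change 8.10 ± 0.35 SE, adjusted p = 1.1e-24), Itgb2 (7.08 ± 0.21), Itga4 (6.87 ± 0.20), Itgb7 (6.81 ± 0.81) and Itgam (5.84 ± 0.45). Itgb4 was lower (-4.51 ± 0.71, adjusted p = 4.4e-07). Itga6 was called lower (-2.77 ± 1.15, adjusted p = 0.042) in a fit that gives each type equal weight, where monocytes, neutrophils and dendritic cells had no UMI of it. With all cells pooled its level went the other way, at 106.5 and 99.7 CPM in leukocytes and 5.32 and 7.71 in structural cells, and the call was lost with no gene filter (adjusted p = 0.074) and with DESeq2 (0.14), so no direction is drawn for Itga6. Itgax, Itgae and Itgb8 did not pass in this fit, although DESeq2 called all 3. Pooled over cells, Itgax was 29.8 and 26.7 CPM in leukocytes against 0.0637 and 0.183 in structural cells. Itgae was 7.08 and 5.47 CPM against 0.127 and 0.274, and Itgb8 0.379 and 0.631 against 19.3 and 19.4. The lack of a call for these 3 is therefore no sign of equal levels. The median log2 fold change was 4.78 over the members and -0.57 over all genes. Of the 36 measured genes of an integrin pathway list (partners, ligands, activators, restraints, hemidesmosome and TGF-β activation genes), 10 were higher and 15 lower. The higher ones were led by Cytip, Fermt3 (kindlin-3, the integrin activator of blood cells), Nrros and Apbb1ip (RIAM, which brings talin to the membrane), and the lower ones by the laminin chain gene Lama4, Lrrc32, Vcam1 and Jam3.

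The beta2 gene Itgb2 was detected in every leukocyte type. It reached 767 and 731 CPM in aortas 1 and 2 in macrophages led by Prg4 and Saa3, 513 and 528 in macrophages led by Marco and Spp1, and 602 and 431 in monocytes led by Ace and Treml4. Resident macrophages (149.8 and 181) and macrophages rich in MHC class II (192 and 198) lay lower, and mature T cells (139 and 105), thymocyte-like T cells (49.2 and 48.3) and B cells (31.5 and 40.2) lower still. In SMCs it was 1.03 and 1.41 CPM, or 0.689% and 0.776% of the level in resident macrophages. The macrophage gene C1qa stood at 0.118% and 0.0890% of its resident macrophage level in the same SMCs. The part of free RNA in these traces was not tested. Prg4 Saa3 macrophages did not overlap the next type in the order. Marco Spp1 macrophages, Ace Treml4 monocytes, NK cells and neutrophils each overlapped the next one down, and Ly6c2 Chil3 monocytes (345 and 449.9) did not overlap dendritic cells (300.3 and 248).

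Itgam and Itgax lie next to each other on mouse chromosome 7 on the plus strand (GRCm38, 128062640 to 128118491 and 128129547 to 128150657), and their levels in aortic macrophages ran opposite. In resident macrophages, the Folr2 and Cd163 cells of the wall, Itgam (CD11b, the alpha chain of Mac-1) was 307 and 277 CPM, while Itgax (CD11c) had 4 UMIs in aorta 1 and 0 in aorta 2. In MHC class II-rich macrophages Itgam was 34.3 and 22.8 CPM and Itgax 288 and 246 CPM. The aortas did not overlap between the types for either gene. Itgax was higher in MHC class II-rich than resident macrophages (log2 fold change 8.29 ± 0.41 SE, adjusted p = 1.4e-19) and Itgam lower (-3.13 ± 0.25, adjusted p = 4.8e-15). In plain ratios of CPM, Itgam was 10.2-fold lower, and Itgax was 195-fold higher in aorta 1, a ratio that rests on 4 UMIs and has no counterpart in aorta 2, where resident macrophages had none.

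The bases that precede the RefSeq starts of the 2 genes are shown because these neighbours, with 1 partner chain, went in opposite directions between macrophage types. Each is the 250 bases before the start (GRCm38.p6, plus strand), with Itgam at chr7:128062390-128062639 and Itgax at chr7:128129300-128129549. Capitals mark GAGGAA or its reverse TTCCTC, a purine-rich string of the kind bound by the myeloid factor PU.1.

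Itgam: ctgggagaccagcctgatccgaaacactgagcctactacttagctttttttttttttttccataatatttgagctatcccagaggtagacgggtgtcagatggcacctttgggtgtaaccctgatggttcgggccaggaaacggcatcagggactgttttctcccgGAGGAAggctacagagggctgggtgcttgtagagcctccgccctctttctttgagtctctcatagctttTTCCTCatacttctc

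Itgax: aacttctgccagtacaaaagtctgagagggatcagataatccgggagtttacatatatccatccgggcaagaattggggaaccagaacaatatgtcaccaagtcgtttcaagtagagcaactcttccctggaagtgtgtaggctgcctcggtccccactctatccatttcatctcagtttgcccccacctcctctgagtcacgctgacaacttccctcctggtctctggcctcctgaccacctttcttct

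The Itgam window held the string 2 times, first at base 167 and then, on the other strand, at base 236, counted from the window's first base. The Itgax window did not hold it. Also searched on both strands were the RUNX-like ACCACA, the GC box GGGCGG and the TATA box TATAAA, and of these the Itgam window held the GC box 1 time and the Itgax window none. Of 32851 windows of this length, 23.3% held GAGGAA, 14.05% ACCACA, 32.7% GGGCGG and 12.4% TATAAA. A match of letters is a description and not a binding site.

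The same contrast was seen cell by cell. In aorta 1, 348 of 549 resident macrophages had a UMI of Itgam and not Itgax, 1 had Itgax and not Itgam, and none had both. Among the 115 MHC class II-rich cells, 72 had Itgax only, 5 Itgam only and 10 both. Aorta 2 gave 220 of 340 resident cells with Itgam only and 0 with Itgax, against 41 of 73 MHC class II-rich cells with Itgax only, 3 with Itgam only and 5 with both. After thinning each cell to 1000 UMIs, which makes depths equal, 22.6% and 16.4% of MHC class II-rich cells had Itgax and 0 of 549 and 0 of 340 resident cells did, a count that allows up to 0.546% and 0.882% of cells with a UMI at that depth and sets no limit on cells that express the gene. Unthinned, the shares were 71.3% and 63.0%, against 0.182% and 0.

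Of the 10 members, 4 were higher and 1 lower in MHC class II-rich than resident macrophages, where 14.9% of all genes passed (7% higher and 7.95% lower). Itgal (CD11a) rose with Itgax, from 1.10 and 1.12 CPM to 49.2 and 63.7 (log2 fold change 5.71 ± 0.51 SE, adjusted p = 1.1e-12). Itga6 was higher, from 20.2 and 16.8 to 44.7 and 56.9 CPM (1.57 ± 0.29, adjusted p = 3.0e-05), although the largest resident cluster (47.6 and 52.6 CPM) overlapped the MHC class II-rich cells and another resident cluster had none. The call for Itgb8 rests on 2 and 3 UMIs against none. Itgb2 itself differed by 0.42 ± 0.17 (adjusted p = 0.082), so the partner chain did not pass while 3 of its alpha chains did. Among the 36 pathway genes 11 were higher and 3 lower. The higher ones were led by F11r (JAM-A, 5.94), Vcam1 (4.52), Cytip (4.23) and Icam2 (2.67), and the lower were Rasgrp2 (-8.94), Plec and Nrros.

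**Figure D3:**
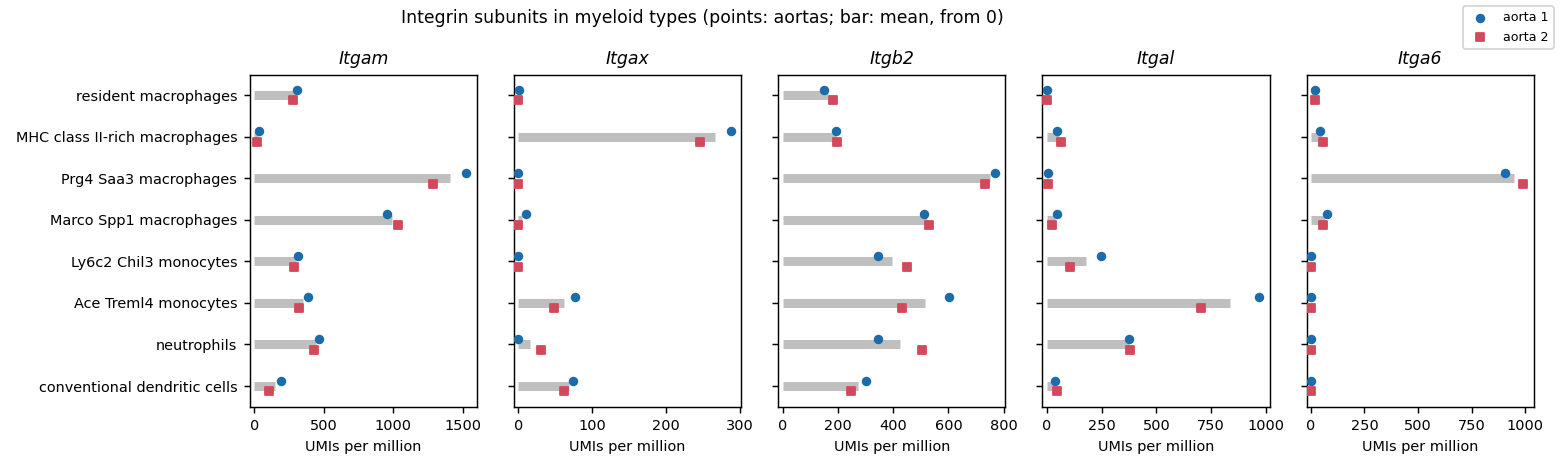
Levels of Itgam, Itgax, Itgb2, Itgal and Itga6 (CPM, x axis from 0) in the 8 myeloid types, with a point for each aorta and a bar to the mean. Itgax stood at 288 and 246 CPM in MHC class II-rich macrophages, where Itgam was at 34.3 and 22.8, and Itga6 stood at 904 and 991 CPM in Prg4 Saa3 macrophages, and at 73.6 or less in the other 7 types.

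Prg4 Saa3 macrophages (43 and 29 cells) stood out for 2 alpha chains. Itga6 was 904 and 991 CPM there, 51.2-fold above its mean in resident macrophages, and 43 of 43 and 28 of 29 cells had a UMI of it without thinning. Itgam was 1526 and 1286 CPM, 4.81-fold above resident macrophages. These cells gave 58.3% and 53.0% of all Itga6 UMIs of the aortas. They were deeper than resident cells (medians of 15632 and 13731 UMIs, against 4869 and 5034), and after thinning to 1000 UMIs 58.1% and 41.4% had Itga6, against 1.82% and 2.65% of resident macrophages. Marco Spp1 macrophages had Itgam at 953 and 1031 CPM with Itga6 at 73.6 and 55.4. Neither group had Itgax beyond 6 UMIs. Within the resident macrophages Itga6 was at 47.6 and 52.6 CPM in the largest cluster, led by Ccl12 and Adam33 (225 and 119 cells), and was 0 in both aortas in the cluster led by Fcna and Cd209f. These subtypes were named after the clusters were seen, and their values are descriptions with no test.

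A further myeloid cluster led by Lyz1, Aldh1a2 and Cd226, which met no type's marker rule (34 and 21 cells), carried both chains, with Itgam at 507 and 382 CPM and Itgax at 94.9 and 177 CPM. It had 35 and 37 of the Itgax UMIs, more than any named type other than MHC class II-rich macrophages.

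Monocytes were set apart from macrophages by the alpha chains Itgal and Itga4. Ace Treml4 monocytes, the nonclassical-type cells, had Itgal at 968 and 703 CPM and Itga4 at 1128 and 767, in both aortas above every other named type. Ly6c2 Chil3 monocytes had Itgal at 249.7 and 107 CPM and Itga4 at 612 and 485. All macrophages together had Itgal at 14.5 and 13.5 CPM and Itga4 at 136 and 141. Monocytes were higher in Itgal (log2 fold change 4.94 ± 0.27 SE, adjusted p = 2.2e-19), Itga4 (2.06 ± 0.14, adjusted p = 8.2e-17) and Itgb7 (3.04 ± 0.47, adjusted p = 2.5e-06). Itgb7 was 144 and 95.2 CPM in all monocytes and 22.7 and 21.6 in all macrophages. The macrophage types were unequal, with 4.42 and 3.35 CPM in resident macrophages, and with subtypes summed the value was 2.43 (adjusted p = 4.1e-06). Monocytes had no UMI of Itga6 in either aorta, so macrophages as a whole were at least 23.2-fold higher, against a floor of 3 counts over both aortas. That bound rests on the Prg4 Saa3 cells. Itgam (-0.22 ± 0.17) and Itgb2 (0.22 ± 0.14) did not pass. At a clustering resolution of 0.5 in place of 1, Itgam was higher in the monocyte class (1.10, adjusted p = 2.0e-06), but the Ly6c2 Chil3 cluster was then led by Marco and held 97 cells, so that class was no longer monocytes alone. Called members numbered 3 higher and 1 lower of 10, where 11.3% of all genes passed (4.29% higher and 7.06% lower). The median of all genes was -0.43 on the log2 scale. Of the 36 pathway genes 5 were higher, led by Rasgrp2, a Rap1 activator (3.58), and Cytip (3.51), and 5 lower, led by Dst (-2.76).

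Conventional dendritic cells were rich in Itgb7. It was 363 and 399 CPM, beside Itgb2 at 300.3 and 248 CPM, against 22.7 and 21.6 in all macrophages (log2 fold change 5.03 ± 0.30 SE, adjusted p = 3.9e-18). UMIs of Itga4 and Itgb7 were found together in 15 of 25 and 16 of 22 cells. Itgae, the other partner of beta7, had 12 and 4 UMIs. Cells with a UMI of Xcr1 or Clec9a held 12 of the 12 in aorta 1, all in 2 of 6 cells, and 3 of the 4 in aorta 2, in 3 of 9 cells. In the remaining dendritic cells Itgam was found in 15 of 19 and 5 of 13 cells, against 2 of 6 and 2 of 9 in those with the cDC1 markers. Against macrophages, 4 of 10 members were higher and 2 lower, where 11.4% of all genes passed (6.17% higher and 5.27% lower). The others were Itgae (7.79 ± 1.04, a call that rests on these few UMIs) and Itgal (1.95 ± 0.51) higher, and Itgam (-1.04 ± 0.22) and Itga6 (0 UMIs in dendritic cells) lower. The macrophage types differed widely in Itgal and Itgam. Mean Itgal was 56.5 CPM in MHC class II-rich and 1.11 in resident macrophages. Mean Itgam was 28.5 CPM in MHC class II-rich macrophages, below the dendritic cells, and the Itgam call ended with doublets kept. At the lower clustering resolution, where no Marco Spp1 cluster was left among the macrophages and the dendritic cluster took in cells led by Lyz1, Aldh1a2 and Cd226, Itgam was higher by 0.53 (adjusted p = 0.019), under the fold limit. With doublets kept, the 15 cells led by Xcr1 and Clec9a formed a cluster of their own outside the class, and Itgae did not pass in the cells that were left (-1.17, adjusted p = 1.00). The call for Itgax (4.43 ± 0.63) depended on how macrophage subtypes were weighted, since most of them hold almost none. With all macrophages summed it was 0.92 (adjusted p = 0.076), and MHC class II-rich macrophages (288 and 246 CPM) had more than dendritic cells (74.1 and 62.1). Of the pathway genes 2 were higher (Cytip and Icam1) and 6 lower, led by Icam2 and Fn1.

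Among lymphocytes, mature T cells differed from B cells in 5 of 10 members, 4 higher and 1 lower, where 11.6% of all genes passed (5.22% higher and 6.35% lower). Itgb2 was 139 and 105 CPM in T cells and 31.5 and 40.2 in B cells (log2 fold change 1.85 ± 0.28 SE, adjusted p = 8.1e-07). Itgal was 74.8 and 71.5 CPM against 29.7 and 24.5 (1.44 ± 0.34, adjusted p = 0.0016), and Itga6 was 58.8 and 61.5 against 5.25 and 0 (4.33 ± 0.53, adjusted p = 8.4e-09). With cells of 5000 to 25000 UMIs the result for Itgal, mature T cells against B cells, no longer passed (1.06, adjusted p = 0.16). Itgae was 26.9 and 33.27 CPM in T cells and had no UMI in B cells of either aorta, at least 10.2-fold higher in T cells. Both lymphocyte types carried Itga4 (204 and 231 CPM in T cells, 259 and 288 in B cells) at levels that did not pass (-0.33 ± 0.18, adjusted p = 0.28). Itgb7 (195 and 226 CPM against 89.2 and 183) differed by 0.67 ± 0.24, below the fold limit. Thy1, Skap1 and Fyb led the pathway genes higher in T cells (3 of 36), and Dok1 was the 1 lower.

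Itgam was higher in B cells (19.2 and 26.8 CPM) than in T cells (2.18 and 1.66), and its source was narrow. All 11 and all 12 Itgam UMIs of the B cells came from 1 cluster led by Igkc, Mzb1 and Plac8 (30 and 31 cells). The larger cluster led by Ighd and Fcer2a (86 and 56 cells) had 0 in both aortas. CD11b on B cells is known from the B-1 lineage. Itgb7 ran the same way, at 122 and 273 CPM in the Mzb1 cluster and 65.9 and 72.4 in the Ighd cluster.

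Within mature T cells, several chains differed between clusters by more than between aortas, given here with no test. The cluster led by Cd160 and Cxcr3 had Itgb2 at 344 and 272 CPM and Itga4 at 379 and 453. The largest, led by Dapl1 and Igfbp4, had Itgb2 at 71.9 and 70.6, Itgb7 at 212 and 309.7 and Itga6 at 91.0 and 86.3. Itgae was 56.4 and 43.2 CPM in a cluster led by Dapl1 and Ly6c2 and 19.2 and 11.8 in the largest. Of T cells with an Itgae UMI, 15 of 28 and 9 of 14 also had one of Itgb7, its only partner. That was near the base share, since 56.25% and 59.4% of mature and gamma-delta T cells together had a UMI of Itgb7.

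Thymocyte-like T cells, which express Rag1 and Dntt, were lower than mature T cells in 5 of 10 members and higher in none, where 16.3% of all genes passed (7.85% higher and 8.4% lower). Itgb7 showed the widest gap, at 3.65 and 16.1 CPM against 195 and 226 (log2 fold change -5.00 ± 0.42 SE, adjusted p = 2.0e-13). Itgb2 (-1.81 ± 0.26), Itga4 (-1.42 ± 0.21), Itga6 (-1.83 ± 0.33) and Itgae (-2.86 ± 0.68) were also lower. Itgal was 69.3 and 53.7 CPM against 74.8 and 71.5 and did not pass (-0.67 ± 0.29, adjusted p = 0.096). At equal depth 1.45% and 0 of thymocyte-like cells had a UMI of Itgb7, the latter allowing up to 3.66%, against 16.5% and 21.6% of mature T cells. Unthinned, the shares were 1.45% and 2.44%, against 55.4% and 56.7%. Of the pathway genes Thy1 was the 1 higher, and Cytip, Icam1, Flna and Cyth1 were the 4 lower.

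A further 3 lymphoid types were too small to test. Gamma-delta T cells (10 and 9 cells) had Itgb7 at 546 and 774 CPM from 30 and 40 UMIs, found in 8 of 10 and 9 of 9 cells. They had no UMI of Itga4 or Itgae, the known alpha partners of beta7, and Itgal was 273 and 290.3 CPM. The floor of 3 counts corresponds to 54.6 and 58.1 CPM there, under the Itga4 level of mature T cells but above their Itgae level, so the lack of Itgae UMIs sets no difference from them. ILC2 (13 and 8 cells) had Itgb7 at 234 and 473 CPM and Itga4 at 251 and 237. NK cells (11 and 3 cells) had Itgb2 at 618 and 325 CPM and Itgam at 229 and 65.0, the latter from 10 UMIs and 1 UMI.

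**Figure D4:**
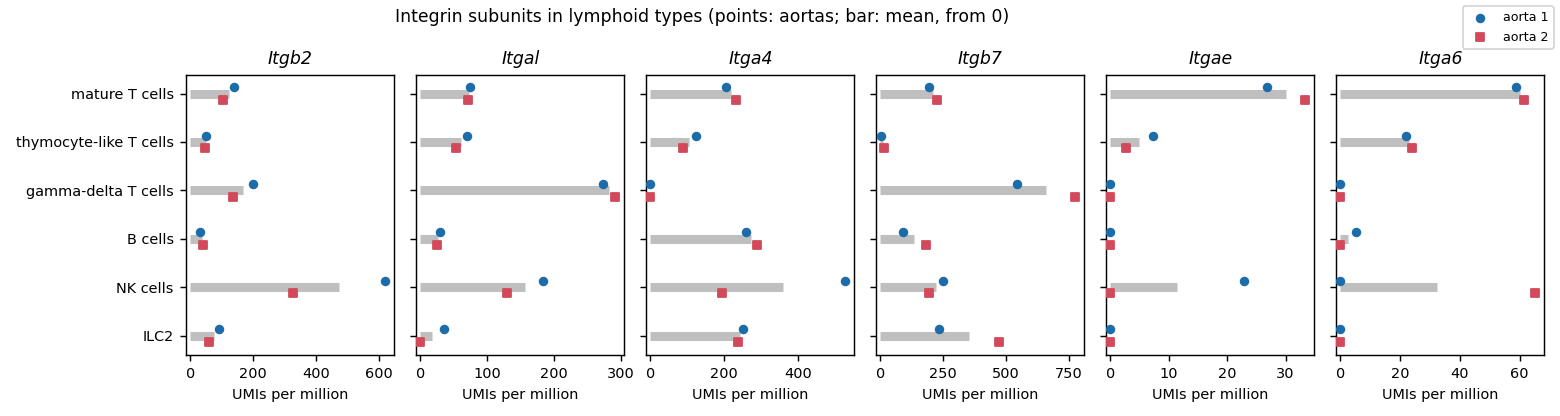
Levels of Itgb2, Itgal, Itga4, Itgb7, Itgae and Itga6 (CPM, x axis from 0) in 6 lymphoid types, with a point for each aorta and a bar to the mean. Itgb7 was highest in gamma-delta T cells (546 and 774), which had no Itga4, and was 3.65 and 16.1 in thymocyte-like T cells.

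In the endothelium Itgb4 was above the floor in both aortas of all 5 types. Against SMCs and fibroblasts, Itgb4 was higher in vascular endothelial cells (log2 fold change 7.05 ± 0.29 SE, adjusted p = 2.4e-25). It was 106 and 103 CPM in Emcn cells, 164 and 164 in Sema3g Gkn3 cells, 213 and 229 in the remaining vascular endothelial cells and 227 and 204 in lymphatic endothelial cells. In Fabp4 Cd36 cells it was 52.4 CPM in aorta 1, below all the other types, and 107.7 in aorta 2, beside the level of Emcn cells. SMCs had 0.745 and 0.165 CPM. At equal depth, between 9.15% and 20.5% of cells in the first 4 types had a UMI and 2.56% and 7.84% of Fabp4 Cd36 cells, and B cells had none in 125 and 95 cells. Of the members 2 were higher (Itgb4 and Itga6) and 2 lower (Itgb8 and Itga4) in vascular endothelial cells, where 24.7% of all genes passed (9.87% higher and 14.8% lower). The call for Itga4, vascular endothelial cells against SMCs and fibroblasts, was at -1.50 (adjusted p = 0.035). It ended with RLE size factors (adjusted p = 0.0506), DESeq2 (adjusted p = 0.0546) and cells of 5000 to 25000 UMIs (adjusted p = 0.0836). That for Itga6 (3.43) was not made at the lower clustering resolution (2.34), while with the subtypes summed Itga6 stayed higher (4.31, adjusted p = 1.5e-17). The Itgb8 call (-2.43 ± 0.63) rested on the weight of Fabp4 Cd36 cells, which had no UMI. With the subtypes summed it was -0.50 (adjusted p = 0.073), while Itgam was then called higher (1.60, adjusted p = 0.010). Of the 11 and 5 Itgam UMIs in vascular endothelial cells, 5 and 4 came from Fabp4 Cd36 cells, in which macrophage markers were also raised (1243 and 820 CPM summed), and the part of macrophage RNA in this call was not tested. Pathway genes split 11 higher and 12 lower of 36, with Icam2 (7.73), F11r (3.98), Icam1 and Fermt3 (3.48) leading the higher and Thy1, C3, Tgfb3 and Ltbp1 the lower.

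Itga6, the alpha partner of beta4, had another distribution. Emcn cells had Itga6 at 5.04 and 1.499 CPM and the remaining vascular endothelial cells at 3.00 and 1.26, while SMCs had 2.01 and 2.23. In cells led by Fabp4, Cd36 and Rbp7 (39 and 51 cells) Itga6 was 397 and 389 CPM, or 196 and 226 in their cluster with no UMI of Itgam, and in lymphatic endothelial cells 127 and 212. Of 277 and 270 remaining vascular endothelial cells, 127 and 126 had a UMI of Itgb4, and 1 and 0 of those also had one of Itga6. In lymphatic endothelial cells 5 of 15 and 14 of 27 Itgb4-positive cells had both. These shares follow the level of Itga6, since 3 of 277 and 1 of 270 remaining vascular cells, and 15 of 45 and 35 of 73 lymphatic cells, had a UMI of it at all. Detection in single cells is incomplete, and no protein was measured.

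Between the 2 endothelial types that the marker genes separate, 1 member passed, where 3.82% of all genes did (2.09% higher and 1.73% lower). Itga6 was 25.6 and 29.7 CPM in Sema3g Gkn3 cells and 5.04 and 1.499 in Emcn cells (log2 fold change 2.94 ± 0.56 SE, adjusted p = 2.3e-04). The 2 clusters of the former were unequal. The cluster led by Sema3g and Igf2 (101 and 51 cells) had 57.0 and 68.8 CPM and the cluster led by Adra2a and Coch (120 and 118 cells) had 0 and 15.7. Itgb4 was higher by 0.62 ± 0.19 (adjusted p = 0.043), under the fold limit, and Itgb8 did not differ by the test (-0.20 ± 0.44). Rasgrp2, Lama5 (laminin alpha5, a ligand of alpha6 integrins) and Plec (plectin, which links beta4 to keratin or vimentin) were the 3 of 36 pathway genes higher in Sema3g Gkn3 cells, and none was lower.

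Fabp4 Cd36 cells also carried leukocyte transcripts. Itgam was 37.4 and 33.1 CPM there, and the summed 9 macrophage markers were 1243 and 820 CPM, with 8 of 9 detected in each aorta and none in 25% of cells, against 39.0 to 91.5 CPM in the other vascular and lymphatic endothelial types and 26444 and 28487 in resident macrophages. Itga6 was 20.2 and 16.8 CPM in resident macrophages and 904 and 991 in Prg4 Saa3 macrophages, and the part of macrophage RNA in the Itga6 level of these endothelial cells was not tested. Their cluster led by Lrg1 and Stc1 had no UMI of Itgam and had Itga6 at 196 and 226 CPM.

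Lymphatic endothelial cells differed from vascular endothelial cells in 1 of 10 members, Itga6 (log2 fold change 3.16 ± 0.30 SE, adjusted p = 8.6e-12), where 12.3% of all genes passed (6.24% higher and 6.03% lower). That fit gave each vascular type equal weight, and with subtypes summed Itga6 was higher by 2.25 (adjusted p = 2.3e-08). It was not higher than in every vascular type. Fabp4 Cd36 cells, which also carried macrophage markers, had a mean of 393 CPM, against 169 in lymphatic cells. Itgb4 did not pass (0.48 ± 0.21, adjusted p = 0.13). Itgb8 had no UMI in lymphatic endothelial cells of either aorta against 32 and 38 UMIs in vascular ones. The floor in these few cells is 20.02 and 12.5 CPM, against vascular levels of 11.3 and 17.4, so a difference was not detectable in aorta 1 taken alone. With subtypes summed the test called Itgb8 lower in lymphatic cells (adjusted p = 0.023), and its fold against 0 UMIs is no measure of size. Among 36 pathway genes 5 were higher, led by Thy1 (11.26), C3 and Rasgrp2, and 6 lower, led by Fermt3 and Vcam1.

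**Figure D5:**
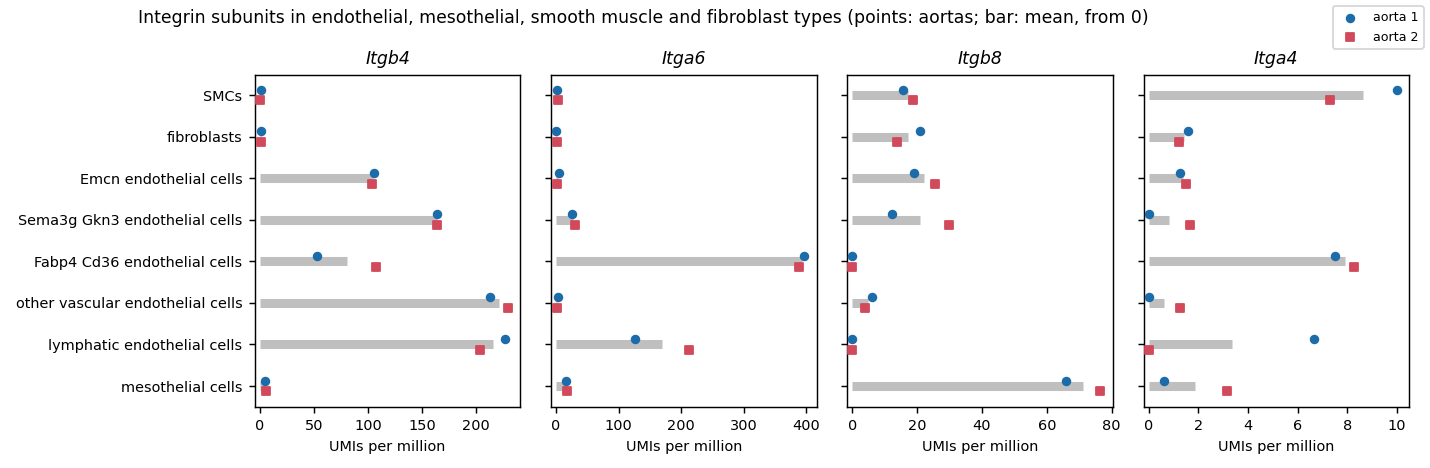
Levels of Itgb4, Itga6, Itgb8 and Itga4 (CPM, x axis from 0, a different scale in each panel) in SMCs, fibroblasts, 5 endothelial types and mesothelial cells, with a point for each aorta and a bar to the mean. Itgb4 was above 50 CPM in both aortas of each endothelial type, Itga6 peaked in Fabp4 Cd36 cells (397 and 389), which also carried macrophage markers, and Itgb8 in mesothelial cells (65.8 and 76.5).

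Mesothelial cells, the outer lining, had the highest Itgb8, at 65.8 and 76.5 CPM, against 15.8 and 18.7 in SMCs and 20.8 and 13.8 in fibroblasts (log2 fold change 1.82 ± 0.19 SE, adjusted p = 2.1e-10). In addition to Itgb8, Itga6 (3.43 ± 0.35), Itgb4 (2.33 ± 0.56) and Itgb7 (2.45 ± 0.79) were higher, 4 of 10 members, where 23.7% of all genes passed (11.2% higher and 12.4% lower). The call for Itgb4 was made at a low level, of 4.39 and 5.24 CPM. Itgb7 was 1.25 and 8.39 CPM, against 0.115 and 0.496 in SMCs and 1.38 and 0.776 in fibroblasts. Its mesothelial level rests on 2 UMIs in aorta 1 and on 8 UMIs in 2 of 155 cells of aorta 2, both of which also had a UMI of Itga4. Mesothelial Itgb4 was 33.8-fold below the vascular endothelial mean, although the hemidesmosome gene Lamb3 (3.25) and Lama5 (2.48) were among the 6 of 36 pathway genes higher there, with C3 and F11r leading. The 13 lower were led by Lrrc32 and Apbb1ip, and Ltbp1 and Flna followed. Itgav, the partner of beta8, was 103 and 128 CPM in mesothelial cells.

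SMC clusters differed in Itgb8 and Itga4, given with no test. The SMC cluster led by Rgs5 and Lamc3 (467 and 406 cells) had Itgb8 at 49.6 and 55.1 CPM, while the largest SMC cluster, led by Mylk4, had 7.02 and 7.22. Itga4 ran the other way, at 1.70 and 2.005 CPM in the Rgs5 cluster and 10.6 and 7.39 in the Mylk4 cluster. In SMCs as a whole Itga4 was 9.98 and 7.28 CPM, from 174 and 88 UMIs, against 1.60 and 1.24 in fibroblasts. That is 9.22% and 6.54% of the resident macrophage level, where C1qa stood at 0.118% and 0.0890%. For Itgb2 and Itgam the same share was between 0.119% and 0.776%. For Itgal it was 15.6% and 14.8% and for Itgb7 2.60% and 14.8%, both of which resident macrophages held at under 5 CPM. The part of free RNA in these SMC levels was not tested.

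Profiles over the 20 tested types were compared with those of 11140 genes as a description (Pearson r of log2(CPM + 1) over types that share libraries). Itgb2 was most like Pik3r5 (r = 0.98), Cotl1 and Selplg, Itga4 like Myo1g (r = 0.97), Pik3r5 and Arhgap30, and Itgal like Cytip (r = 0.95), Fmnl1 and Bin2. Itgam was most like F630028O10Rik (r = 0.95), Rasgrp4 and Ccl6, Itgax like Adamdec1 (r = 0.92), Bcl2a1a and Havcr2, Itgb7 like Ryr1 (r = 0.87), Clec2i and Map4k1, and Itgae like Cd7 (r = 0.93), Cst7 and Klrd1. Itgb4 was most like Mmrn2 (r = 0.97) and Myct1, and Wscd1, while Itgb8 was most like Ptprd (r = 0.93), Nnmt and Arhgap44. Itga6 had the least close match, Pitpnc1 (r = 0.77), Ipo11 and Gbe1.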

How the data were processed

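The authors processed the 10x 3′ libraries with Cell Ranger 4.0.0 (per the file headers) on mm10 and deposited raw UMI counts per gene and cell. Seurat 4.0 stands in the submitters' notes. Cells with at least 200 genes, 1000 to 25000 UMIs and under 10% mitochondrial UMIs were kept, and Scrublet doublets removed (3.04% and 1.79%). Clusters were made in scanpy 1.11.5 (Leiden, leidenalg 0.10.2) under Python 3.11.15, without 83 genes that include all integrin and pathway genes, and named from marker lists. Counts were summed per aorta and type for 20 types of at least 10 cells per aorta. The sums were tested on 11536 genes with edgeR 4.0.16 (quasi-likelihood, TMM, Benjamini-Hochberg, R 4.3.3), with DESeq2 1.42.0 as an alternative and 20 residual degrees of freedom. Scripts were tested on simulated data. Equal-weight means over subtypes formed the class contrasts.

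The members and lists were chosen with earlier results of these data known. The splits of monocytes, of macrophages led by Prg4 or Marco and of Fabp4 Cd36 endothelial cells, the scoring of the other endothelial subtypes, and a score limit of 0.5 for subclusters were set after the clusters were seen. Named genes were all members, up to 4 called pathway genes with the largest change in each direction, and the 3 genes most like each member by Pearson r. Of 41 pathway genes 36 were tested. NK cells, ILC2 and gamma-delta T cells were left out of the tests, as were contrasts of dendritic subsets. Intervals and floors (3 counts) cover counting error only. The aorta numbers pair the types because both come from 1 animal. Deviations correlated at a median r of 0.0237 over 190 pairs of types.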

Additional observations from a re-analysis of the deposited data

How the results depend on the processing

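The counts that follow ask whether a member result kept its side of the threshold, and its direction where it was called. A change of direction in values not called was not counted. Of 100 member results, 100 kept their side with the aorta as a replicate block, a pairing that changed no call (for Itgax, MHC class II-rich against resident macrophages, the log2 fold change with the block was 8.31). With RLE size factors 99 of 100 did, with no gene filter 99 of 100, with DESeq2 91 of 99, with doublets kept 93 of 100, with a sub-clustering resolution of 0.5 (not 1), 96 of 100, and with cells of 5000 to 25000 UMIs 84 of 90. With subtypes summed into classes, an alternative chosen after seeing the data, 76 of 80 did. Itga6 in leukocytes against structural cells was no longer called without a gene filter, with DESeq2, with doublets kept, at the resolution of 0.5 or with cells of 5000 to 25000 UMIs. In vascular endothelial cells Itga4 lost its call with RLE, DESeq2 and cells of 5000 to 25000 UMIs, Itga6 at the resolution of 0.5, and Itgb8 with cells of 5000 to 25000 UMIs and with summed classes. In dendritic cells Itgam lost its call with doublets kept and Itgax with summed classes, and Itgal in mature T against B cells lost its call with cells of 5000 to 25000 UMIs. DESeq2 added calls for Itgax, Itgae and Itgb8 in leukocytes, Itgam and Itgax in vascular endothelial cells and Itgax in mesothelial cells. Doublets kept added Itgam in vascular endothelial cells and Itgal, Itgam and Itgax in mesothelial cells, cells of 5000 to 25000 UMIs added Itgb8 in leukocytes and Itgal in thymocyte-like cells, and summed classes added Itgam in vascular and Itgb8 in lymphatic endothelial cells. The number of genes called fell from 1309 to 793 for monocytes against macrophages, and from 441 to 284 for the endothelial subtypes, with cells of 5000 to 25000 UMIs, where fewer genes and cells were tested. Direction turned for Itgam at the resolution of 0.5, to 0.53 in dendritic cells and 1.10 in monocytes, and for Itgae in dendritic cells with doublets kept, to -1.17. The classes had changed there, with Marco macrophages inside the monocyte class and the Lyz1 cells inside the dendritic class at the lower resolution, and the Xcr1 cells outside the dendritic class with doublets kept. The lymphatic comparison could not be made at 5000 to 25000 UMIs. With RLE size factors the median over all genes shifted by -0.12 for leukocytes against structural cells, -0.11 for MHC class II-rich macrophages and 0.10 for vascular endothelial cells. Leaving out 1 aorta left values with no test, and 0 called values changed sign. Without aorta 1, 32 of 100 lay further from the full fit than the SD of the values without each aorta, and 15 did without aorta 2. That SD comes from the same values, so these counts are no test against a replicate spread. For Itgax, MHC class II-rich against resident macrophages, the value without aorta 1 was 11.41, as resident macrophages of aorta 2 had no UMI, and 7.72 without aorta 2. Types of few cells limit what can be seen, since the floor reached 195 CPM in NK cells of aorta 2.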
